A study of Mus musculus with 12 samples.

Results

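The genes of cholesterol and fatty acid synthesis were followed across tumours of MC38, a mouse colon carcinoma line, from mice given doxorubicin, a doxorubicin prodrug, an antibody-catalyst conjugate or a combination. The set was a fixed list of 30 genes, matched by symbol to the count table, which holds 42803 distinct gene names. Of the 30, 18 encode enzymes of the sterol pathway, from acetoacetyl-CoA to cholesterol, and 8 encode enzymes that make, elongate and desaturate fatty acids. A further 3 encode the regulators Srebf1, Srebf2 and Insig1, and 1, Stard4, encodes a sterol carrier protein. All 30 were found once in the table, and all 30 passed the filter on low counts.

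Both pathways start from cytosolic acetyl-CoA and are controlled by the SREBP transcription factors. SREBP precursors sit in the endoplasmic reticulum, held there by INSIG proteins when sterols are plentiful. When sterols run low they travel to the Golgi, are cut, and enter the nucleus. SREBP-2, encoded by Srebf2, acts mainly on the sterol enzymes, and SREBP-1c, encoded by Srebf1, mainly on the fatty acid enzymes. Dividing tumour cells use both pathways to build membranes.

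MC38 cells were grown under the skin of the left flank of C57BL/6J mice aged 8 weeks, and each of 6 groups was represented by 2 libraries. The group Ctrl received PBS, the group DOX 14 µg of doxorubicin (0.56 mg/kg), the group DPD 14 µg of DPD (0.56 mg/kg), and the group RP 20 µg of Ru-PD-L1 (0.8 mg/kg). These 4 groups were injected into the peritoneum, every 3 days from day 9. In the groups R+X and R+D the conjugate, at a dose not stated, was followed after 6 hours by 14 µg of DOX or DPD injected beside the tumour. The route of the drug therefore differed between the single and the combined groups, and all tumours were taken on day 20. DPD was taken to be the doxorubicin prodrug named in the title of the series. The label RP was taken to mean Ru-PD-L1, a conjugate against the checkpoint ligand PD-L1, the label R+X the conjugate plus DOX, and R+D the conjugate plus DPD, an inference from the letters. If the readings of R+X and R+D were exchanged, their values below would change places. No label says that both libraries of a group came from different animals, and the p-values rest on a spread between libraries that may be technical.

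Library totals ran from 46547114 to 56462259 counts. RNA of skeletal muscle was unevenly present: 12 muscle markers, none at 0 in any library, summed to 252 and 99.2 CPM (counts scaled to the library total) in RP, to 335 in R+D replicate 2, and to 10.4 to 28.3 in the other 9 libraries. The 8 T cell markers were highest in the same 3 libraries, with sums of 38.3 to 45.7 CPM against 12.1 to 27.8 elsewhere. Of the epithelial markers of a carcinoma, Krt8 and Krt18 were below the filter and Epcam reached 1.3 CPM at most, while Cdh1 stood at 9.90 to 18.1 CPM. Of 12 markers of fat tissue, which is rich in several of the fatty acid enzymes, 7 passed the filter, and the list summed to 37 to 55.99 CPM. Adipoq reached 0.43 CPM at most and Lep was at 0 in 8 libraries, while Plin4, at 12.6 to 33.8 CPM, Lipe, at 7.79 to 11.05, and Fabp4, at 4.14 to 15.3, were measured in every library. In bulk tumour RNA, fewer cells of a type and less RNA per cell cannot be told apart.

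Members differed widely in abundance. Levels between genes were compared as mean CPM over the 12 libraries per kilobase of the longest coding transcript. The highest was Fdps, farnesyl diphosphate synthase at the branch point of the pathway, with 199 CPM per kilobase, followed by the brain-enriched stearoyl-CoA desaturase Scd2 with 139. Msmo1, a methylsterol monooxygenase, followed with 81.1, Srebf2 with 79.4 and Acly, which makes cytosolic acetyl-CoA from citrate, with 69.4. The lowest were Hsd17b7, a sterol ketoreductase, with 4.87, Acaca, acetyl-CoA carboxylase, with 5.34 and Elovl6, a fatty acid elongase, with 8.51. Between the lowest and the highest library a member varied from 1.41-fold in Srebf1 to 3.60-fold in Tm7sf2, a sterol reductase.

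Early sterol enzymes are described first. Hmgcs1, which makes HMG-CoA and lies at chr13:119690351-119708260 in GRCm38, stood at 259 and 247 in Ctrl, 193 and 261 in DOX, 235 and 211 in DPD, 175 and 158 in RP, 233 and 218.8 in R+X, and 238 and 129.6 in R+D, all in CPM. The RP libraries and R+D replicate 2 held its 3 lowest values, and the 2 R+D libraries differed more than those of any other group. Idi1, the isopentenyl diphosphate isomerase at chr13:8885606-8892396, stood at 137 and 143 in Ctrl, 105 and 141 in DOX, 123 and 111 in DPD, 86.0 and 89.9 in RP, 116 and 115 in R+X, and 127 and 61.3 in R+D, in CPM. Its 3 lowest levels were in the same libraries, with R+D replicate 2 again the lowest. Fdft1, squalene synthase and the first enzyme committed to sterols, at chr14:63145150-63181687, stood at 143 and 168 in Ctrl, 139.8 and 119.7 in DOX, 133 and 106 in DPD, 87.7 and 74.0 in RP, 118 and 109.6 in R+X, and 108 and 67.1 in R+D, in CPM. Both Ctrl libraries of Fdft1 lay above every other library, and the RP libraries and R+D replicate 2 lay below all others. Fdft1 overlaps the protein-coding gene Ctsb, and without a stated use of strand their reads may be mixed.

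Sqle, squalene epoxidase, at chr15:59315092-59331193, stood at 210.3 and 213 in Ctrl, 181 and 207 in DOX, 203 and 175 in DPD, 143 and 133 in RP, 190.2 and 173 in R+X, and 217.4 and 106 in R+D, in CPM. Here R+D replicate 1 was the highest of all 12 libraries and R+D replicate 2 the lowest. Msmo1, at chr8:64718123-64733578, stood at 209 and 259 in Ctrl, 189.6 and 186 in DOX, 185 and 136 in DPD, 114 and 122 in RP, 166 and 154 in R+X, and 167 and 99.7 in R+D, in CPM. The Ctrl libraries were highest, and R+D replicate 2 and RP lowest. Insig1, the protein that holds SREBP back and is itself a sterol-responsive gene, at chr5:28071412-28078662, stood at 146 and 175 in Ctrl, 143 and 163 in DOX, 146 and 123 in DPD, 91.7 and 94.3 in RP, 136 and 141 in R+X, and 152 and 67.6 in R+D, in CPM. Its RP libraries lay below every library except R+D replicate 2.

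The SREBP genes themselves varied less between libraries. Srebf1, at chr11:60199084-60224186, stood at 143 and 138 in Ctrl, 141 and 109.8 in DOX, 118 and 119 in DPD, 105 and 110.4 in RP, 129 and 139 in R+X, and 113 and 101 in R+D, in CPM. Its RP and R+D levels lay below both Ctrl levels, though R+D replicate 1 was above DOX replicate 2. Srebf1 overlaps the protein-coding gene Rai1, as Tm7sf2 does Vps51, so their levels are uncertain in the same way. Srebf2, at chr15:82147269-82205379, stood at 471 and 382 in Ctrl, 442 and 421 in DOX, 405 and 408 in DPD, 387 and 327 in RP, 420.0 and 432 in R+X, and 456 and 285 in R+D, in CPM. RP replicate 1 exceeded Ctrl replicate 2, so those groups overlapped.

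Fatty acid enzymes did not share one pattern. Fasn, fatty acid synthase, at chr11:120805958-120825166, stood at 286 and 237 in Ctrl, 251 and 297 in DOX, 274 and 329 in DPD, 305 and 293 in RP, 317 and 278 in R+X, and 376 and 269.7 in R+D, in CPM, with both RP libraries above both Ctrl libraries. Scd1, the main stearoyl-CoA desaturase, at chr19:44394450-44407709, stood at 314 and 265 in Ctrl, 289.8 and 398 in DOX, 298 and 288 in DPD, 199 and 224 in RP, 304 and 336 in R+X, and 283 and 224 in R+D, in CPM, with its lowest value in RP replicate 1. Scd2, at chr19:44293676-44306864, stood at 892 and 757 in Ctrl, 711 and 887 in DOX, 721 and 769 in DPD, 620.3 and 619.7 in RP, 859 and 843 in R+X, and 878 and 549 in R+D, in CPM. Both RP libraries of Scd2 lay below all others except R+D replicate 2. Fads1, a desaturase of polyunsaturated fatty acids at chr19:10182877-10196874, stood at 219.6 and 222.2 in Ctrl, 209.8 and 220.3 in DOX, 207 and 186 in DPD, 166 and 144 in RP, 197 and 202 in R+X, and 209.6 and 129 in R+D, in CPM, and was lowest in RP and R+D replicate 2. Scd1 and Scd2 are close copies of each other and of Scd3 and Scd4, so reads may have been divided between them.

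**Figure D1:**
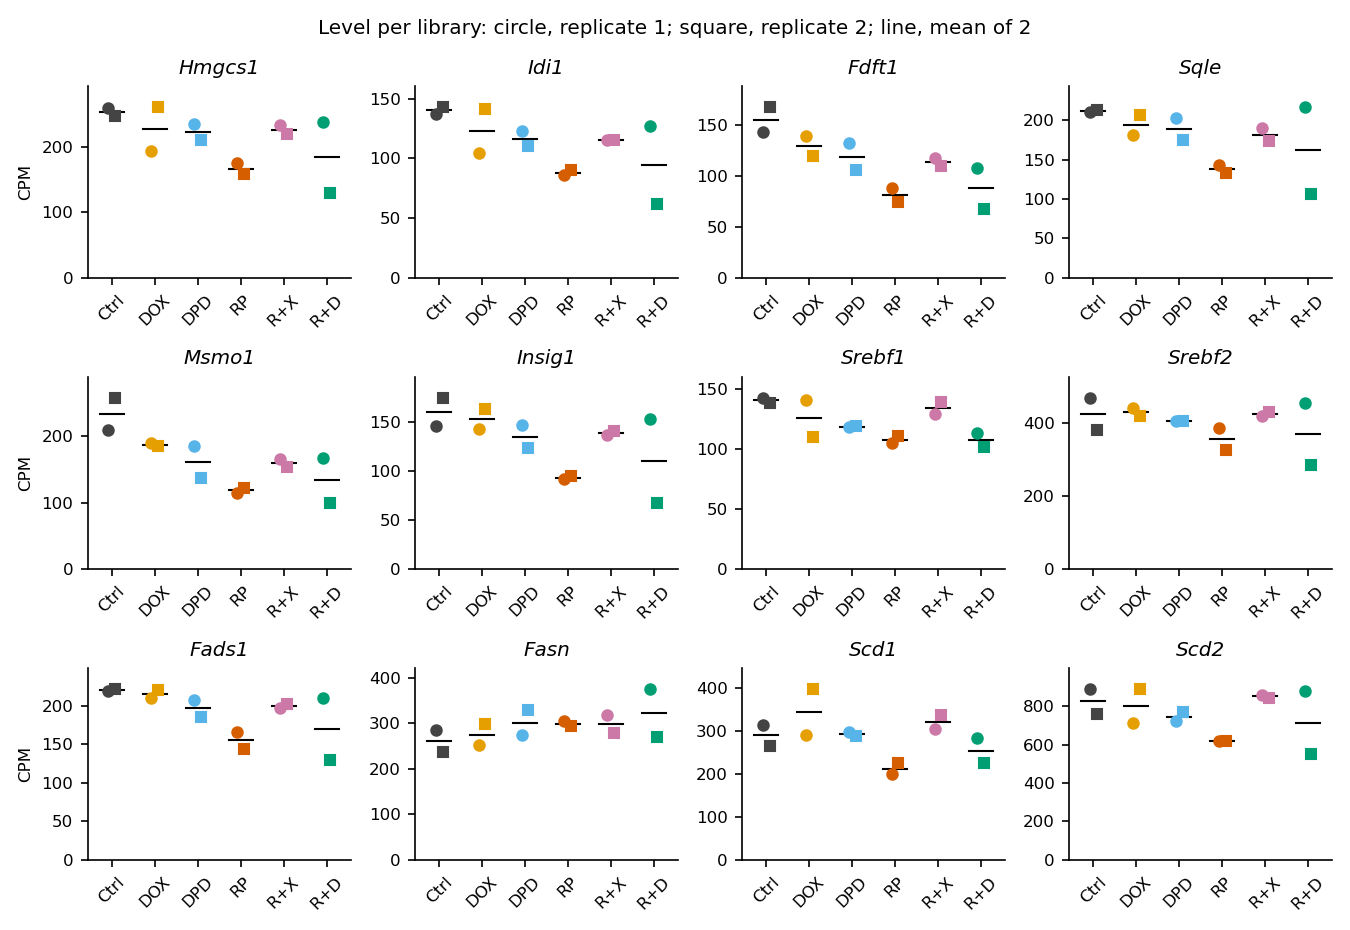
Level of 12 members in each library, in CPM on the vertical axis from 0, by group on the horizontal axis; circles are replicate 1, squares replicate 2 and lines the mean of the 2. For Hmgcs1, Idi1, Fdft1, Sqle, Msmo1 and Insig1 the RP libraries lie below both Ctrl libraries, while for Fasn they lie above, and the R+D libraries are far apart.

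The conjugate alone (RP) was set against PBS to ask what Ru-PD-L1 did without a drug. The sterol enzymes were lower as a group: all 18 had negative log2 fold changes, with a median of −0.69, against 0.06 over the 19525 genes tested. The 8 fatty acid enzymes had a median of −0.20 and were divided in sign, 4 lower and 4 higher. That median was −0.06 without Ctrl replicate 1 and −0.33 without Ctrl replicate 2. No member passed: edgeR called 0 of 30 at an adjusted p under 0.05, and 0.0154% of all genes. Below an unadjusted p of 0.05, 20 members were lower, among them 16 of 18 sterol enzymes, 2 of 8 fatty acid enzymes (Scd1 and Fads1) and the regulators Srebf1 and Insig1, against 9.38% of all genes. Both RP libraries lay below both Ctrl libraries for 25 members, including all 18 sterol enzymes, against 27.1% of genes. They lay above for 2, Acaca and Fasn, against 32.3% of genes.

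Fdft1 had the smallest p, at −0.94 ± 0.23 log2 units (SE), with an adjusted p of 0.128 by edgeR. Msmo1 followed, at −0.98 ± 0.24 log2 units (SE), with an adjusted p of 0.128, then Cyp51, the lanosterol demethylase, at −0.76 ± 0.21 log2 units (SE), with an adjusted p of 0.146, both by edgeR. The 2 largest differences were in Mvk, mevalonate kinase, at −1.02 ± 0.30 (SE), and Fdps, at −1.02 ± 0.34. Hmgcs1 was lower, at −0.60 log2 units, Sqle at −0.62, Idi1 at −0.67 and Insig1 at −0.79. The smallest sterol difference was in Dhcr7, the last reductase of the pathway, at −0.27 log2 units. Among fatty acid enzymes Fads1 stood at −0.51, Scd1 at −0.45, Fads2 at −0.45 and Scd2 at −0.41, while Acly stood at 0.02, Elovl6 at 0.04, Fasn at 0.20 and Acaca at 0.44. Acaca overlaps the coding genes Tada2a and Gm11437.

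Other tools called some of these differences. DESeq2 called 7 members lower in RP, Fdft1, Msmo1, Cyp51, Mvk, Sc5d, Acat2 and Fdps, against 2.27% of genes called lower and 6.09% in either direction. The edgeR fit of RP and Ctrl alone called 5 lower, Mvk, Mvd, Fdps, Fdft1 and Msmo1, against 0.69% of genes called lower. limma-voom called 0 members in any comparison; it called 0.00512% of genes lower in RP (0.0819% in either direction), 0% lower in each other comparison between groups, and 0.0154% in the test of any difference. When a skeletal muscle score entered the edgeR fit, the sterol median was −0.32 and the fatty acid median 0.23. Idi1, at 0.0093, Scd2, at 0.017, and Srebf2, at 0.092, were then no longer below 0. In that fit the slope on the score comes from differences between libraries of a group. In R+D the muscle sums were 26.1 and 335 CPM and the sterol sums 1874 and 1057. In RP the library with more muscle, 252 against 99.2 CPM, had the higher sterol sum, 1426 against 1274. Fibroblast markers summed to 4022 and 2244 CPM in RP and 2219 in R+D replicate 2, against 1452 to 1880 in the other 9 libraries. Col1a1 and Col1a2 made up most of these sums. Of the 6 markers, 4 were higher in RP than in Ctrl, 3 of them at an unadjusted p under 0.05 by edgeR, where 2351 of all 19525 genes were higher. The other 2, Dcn and Pdgfrb, had negative log2 fold changes. All 5 endothelial markers were higher in RP at an unadjusted p under 0.05, with sums of 124 and 91.2 CPM against 69 and 51.1 in Ctrl. Of 8 macrophage markers 5 were higher in RP, 3 of them at that p, and 3 lower, 0 of them at that p. All 5 red blood cell markers were lower at that p in RP and in R+D, with medians of −1.79 and −3.15 log2 units. The same held in DPD and in R+X, with medians of −1.65 and −2.38 log2 units. Of all genes, 9.38% were lower at that p in RP, 6.66% in R+D, 1.4% in DPD and 2.47% in R+X. The part of T cell, macrophage, fibroblast, endothelial and red blood cell RNA in these differences was not tested.

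**Figure D2:**
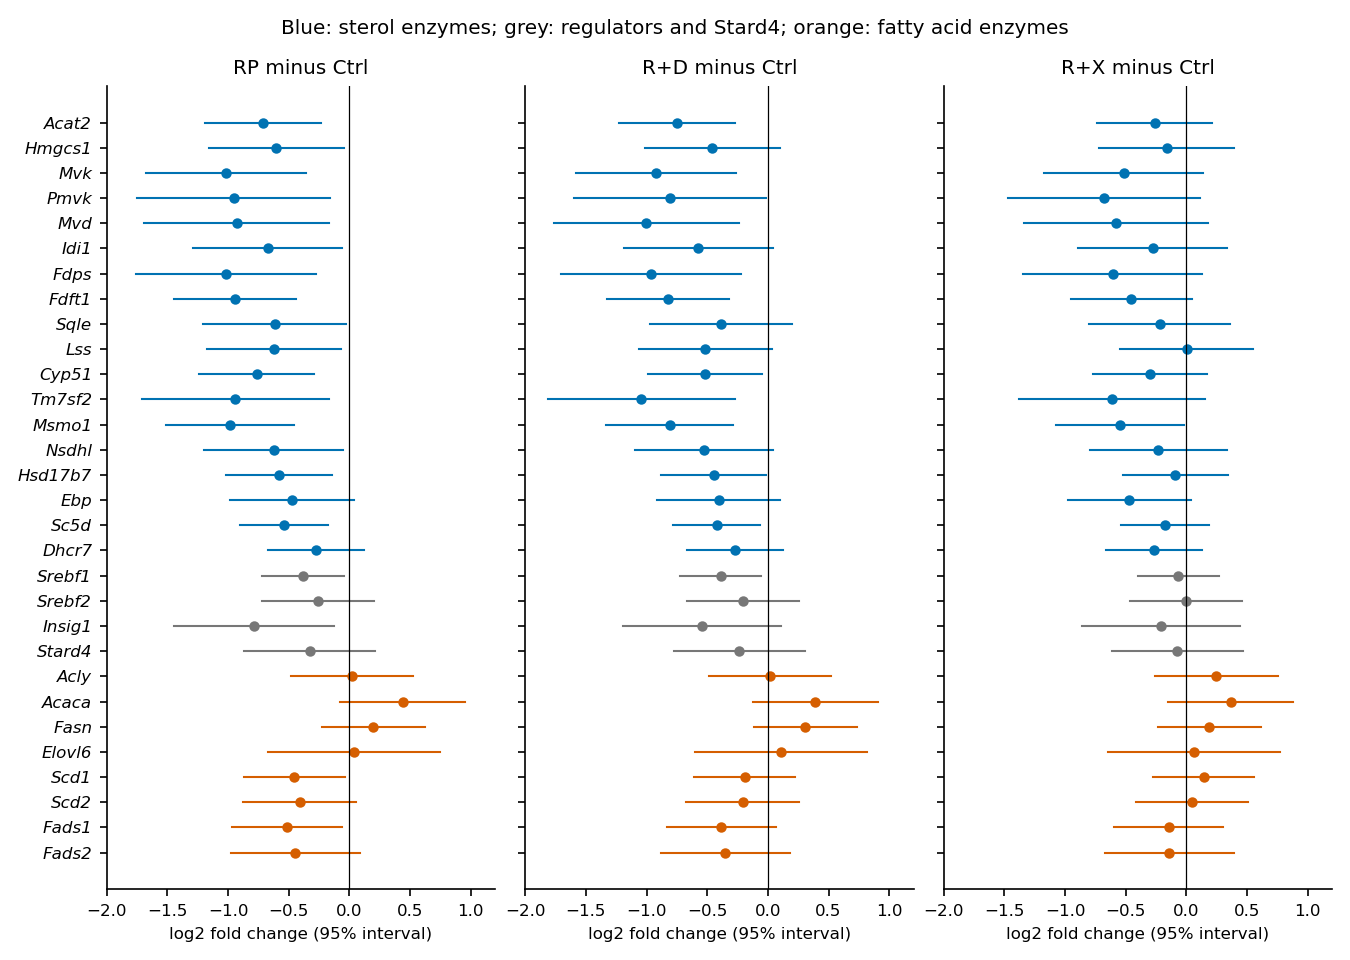
Log2 fold change of the 30 members against Ctrl (horizontal axis) in RP, R+D and R+X, with 95% intervals from the edgeR test; blue marks sterol enzymes, grey regulators and Stard4, and orange fatty acid enzymes. In RP all 18 sterol enzymes lie left of 0, with 16 intervals that leave out 0, while Acly, Acaca, Fasn and Elovl6 lie right of it.

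The conjugate with DPD (R+D) had the lowest mean sterol sum after RP, with its libraries far apart. The sterol sum was 1874 and 1057 CPM in R+D, and 2207 and 2386 in Ctrl. The fatty acid sum was 2384 and 1561, against 2293 and 1950. R+D replicate 2 held the lowest level of 24 of 30 members, where 4.87% of all genes had theirs. Against Ctrl, the sterol median was −0.55 and the fatty acid median −0.09, and 0 members passed edgeR, as did 0% of genes. At an unadjusted p under 0.05, 12 were lower, 11 of them sterol enzymes, against 6.66% of genes, and 19 lay below both Ctrl libraries, against 27.4%. Fdft1, at −0.83 ± 0.23 log2 units (SE), with an adjusted p of 0.314, Acat2, the cytosolic thiolase that opens the pathway, at −0.75, and Msmo1, at −0.81, had the smallest p by edgeR. Acat2 has the close copy Acat3 and overlaps a pseudogene, so its level is uncertain. DESeq2 called 1 member lower, Fdft1, against 0.369% of genes called lower and 1.21% in either direction. Without R+D replicate 2 the sterol median was −0.33 and the fatty acid median 0.19, and without R+D replicate 1 they were −1.11 and −0.42. The muscle sum of R+D replicate 1 was 26.1 CPM, near the Ctrl libraries. With the muscle score in the fit, the fatty acid median of R+D was 0.155.

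With DOX or DPD alone the sterol enzymes were also below Ctrl, with medians nearer 0 than in RP, and that difference between comparisons was not tested. In DOX the sterol median was −0.22, with all 18 enzymes negative, and the fatty acid median 0.08, which ran from −0.08 without DOX replicate 2 to 0.24 without Ctrl replicate 1. edgeR called 0 members and 0% of genes, 1 member was lower at an unadjusted p under 0.05, against 1.22% of genes, and 8 lay below both Ctrl libraries, against 9.43%. That member was Ebp, a sterol isomerase, at −0.53 ± 0.23 log2 units (SE), with an adjusted p of 1 by edgeR, followed by Sc5d, a sterol desaturase, at −0.25, and Msmo1 at −0.32. In DPD the sterol median was −0.29, again with all 18 negative, and the fatty acid median 0.05, which ran from −0.07 without Ctrl replicate 2 to 0.18 without Ctrl replicate 1. edgeR called 0 members and 0% of genes, 1 was lower at an unadjusted p under 0.05, against 1.4%, and 19 lay below both Ctrl libraries, against 17.6%. The 3 of smallest p were Msmo1, at −0.54 ± 0.24 log2 units (SE), with an adjusted p of 0.725 by edgeR, Fdft1 at −0.39 and Mvk at −0.50. As a ratio, the DOX libraries differed most among members in Pmvk, phosphomevalonate kinase, with 25.2 and 10.4 CPM.

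The conjugate with DOX (R+X) had a sterol median near those of the single drugs, and their difference was not tested here. The sterol median was −0.29, with 17 of 18 negative, and the fatty acid median 0.11, or −0.01 without Ctrl replicate 2 and 0.23 without Ctrl replicate 1. edgeR called 0 members and 0% of genes, and 1 was lower at an unadjusted p under 0.05, against 2.47%. For 20 members both R+X libraries lay below both Ctrl libraries, against 27.5% of genes, and for 2 they lay above, Acaca and Acly, against 28.5%. Msmo1 had the smallest p, at −0.55 ± 0.24 log2 units (SE), with an adjusted p of 0.575 by edgeR, then Ebp at −0.47 and Fdft1 at −0.45. Lss, lanosterol synthase, stood at 0.00066 log2 units, the only sterol enzyme not below 0. Over all 19525 genes tested the median was 0.04 in R+D, 0.01 in DOX, 0.01 in DPD and 0.0074 in R+X. Negative log2 fold changes numbered 9106, 9465, 9502 and 9617 in the same order. The comparisons with Ctrl all share the same 2 Ctrl libraries. The sterol enzymes also varied together over libraries, so their signs are not independent of each other.

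DPD and DOX, read as a prodrug and its parent drug, were compared at the same dose and day in 2 pairs of groups, with p-values adjusted over all genes. Alone, DPD against DOX gave a sterol median of −0.07 and a fatty acid median of −0.05, against −0.02 over all genes. The first turned to 0.01 without DPD replicate 2, and the second to 0.16 without DOX replicate 2. edgeR called 0 members and 0% of genes, 0 members were below an unadjusted p of 0.05 on the lower side, against 1.28%, and 3 lay below both DOX libraries, against 10.4%. Tm7sf2 differed by −0.43 log2 units, with a 95% interval from −1.19 to 0.34, Scd1 by −0.23 log2 units, with a 95% interval from −0.65 to 0.18, and Msmo1 by −0.22 log2 units, with a 95% interval from −0.74 to 0.30 (adjusted p = 0.979 for each by edgeR). Each interval holds 0 and differences on both sides of it, so they do not show that the compounds acted alike. With the conjugate, R+D against R+X gave a sterol median of −0.30 and a fatty acid median of −0.22, against 0.0043 over all genes. edgeR called 0 members and 0% of genes, 1 was lower at an unadjusted p under 0.05, against 1.52%, and 9 lay below both R+X libraries, against 23%. Acat2 differed by −0.49 log2 units, with a 95% interval from −0.97 to −0.012, Srebf1 by −0.32 log2 units, with a 95% interval from −0.66 to 0.013, and Lss by −0.52 log2 units, with a 95% interval from −1.07 to 0.03, with adjusted p of 0.942, 0.952 and 0.969 by edgeR. Without R+D replicate 2 the sterol median turned to 0.06 and the fatty acid median to 0.11, and with the muscle score in the fit they were −0.0075 and 0.165.

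Averaged over PBS, DOX and DPD, the 3 groups with conjugate had lower sterol levels than the 3 without. With DOX and DPD the route of the drug changed along with the conjugate, so the 2 cannot be told apart there. The sterol median was −0.36, with all 18 negative, and the fatty acid median −0.07. Over all genes the median was 0.03, with 9102 of 19525 negative. edgeR called 0 members and 0.0154% of genes, and 16 members were lower at an unadjusted p under 0.05, 13 of them sterol enzymes, against 9.47% of genes. All conjugate libraries lay below all others for 0 members, against 15 of 19525 genes. Sterol sums in R+X, of 1834 and 1752 CPM, and in R+D replicate 1, of 1874, exceeded the 1676 of DPD replicate 2. Fdft1, at −0.53 ± 0.13 log2 units (SE), with an adjusted p of 0.147, Msmo1 at −0.49 and Tm7sf2 at −0.68 had the smallest p by edgeR. DESeq2 called 7 members lower, all sterol enzymes, against 2.17% of genes called lower and 4.86% in either direction. Without DOX replicate 2, edgeR called 8 members, and 15.6% of all genes (3233 of 20691). The sterol median was −0.27 without R+D replicate 2 and −0.55 without R+D replicate 1, and the fatty acid median 0.03 and −0.24. With the muscle score in the fit Hmgcs1, at 0.041, Sqle, at 0.065, Idi1, at 0.080, and Insig1, at 0.059, were above 0. In the test of any difference among the 6 groups edgeR called 0 members, against 0.0154% of genes, 5 were below an unadjusted p of 0.05 (Fdft1, Msmo1, Acat2, Scd1 and Mvk), against 9.44%, and DESeq2 called 2, Fdft1 and Msmo1, against 4.82%. In the other comparisons DESeq2 called 0 members. It called lower 0% of genes in DOX, 0.0154% in DPD, 0.00512% in R+X, 0.0256% in DPD against DOX and 0.041% in R+D against R+X, and in either direction 0.00512%, 0.0359%, 0.0205%, 0.0512% and 0.22%.

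Sterol and fatty acid genes were then set against each other within libraries, as the mean of log2 CPM centred on each gene's mean over the 12 libraries. The sterol mean exceeded the fatty acid mean by 0.22 and 0.57 log2 units in Ctrl, 0.37 in DOX replicate 1 and 0.20 in DPD replicate 1. It was the lower of the 2 in the other 8 libraries, with differences from −0.03 in R+X replicate 2 to −0.29 in RP replicate 2. The same 4 libraries with a positive difference were those in which long transcripts were low. Spearman's rho over genes, between centred log2 CPM and transcript length, was −0.28 and −0.47 in Ctrl, −0.42 in DOX replicate 1 and −0.37 in DPD replicate 1, and from 0.05 to 0.37 in the others. The transcripts of Acaca and Fasn, of 9513 and 10050 bases, are the longest of the set, and those of Pmvk, Fdps and Tm7sf2, of 1194, 1382 and 1498 bases, the shortest.

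When each library's trend of log2 CPM with transcript length and GC content was removed, a step added after seeing the data, the contrast between the pathways shrank. The difference became 0.13 and 0.26 log2 units in Ctrl and −0.07 and −0.14 in RP. In RP against Ctrl all 30 members were then negative, with a sterol median of −0.84 and a fatty acid median of −0.52, while the median of the 16252 genes with a transcript length was −0.14. Fasn turned from 0.20 to −0.47 and Acaca from 0.44 to −0.23. edgeR then called 11 members lower in RP, against 7.67% of genes called lower: 7 sterol enzymes (Hsd17b7, Sc5d, Fdft1, Mvk, Cyp51, Msmo1 and Lss), Scd1, Scd2, Srebf1 and Stard4. Scd1 stood at −0.79 ± 0.14 log2 units (SE), with an adjusted p of 0.0339 by edgeR. Averaged over the conjugate groups 4 were called, Fdft1, Hsd17b7, Sc5d and Scd1, against 2.66% of genes called lower. In the other 7 comparisons 0 members were called. Of all genes, 0% were called lower in each of the 6 between groups, where 1 gene in DPD and 3 in R+D were called higher, and 0.265% were called in the test of any difference. The same 16252 genes without the trend removed gave 0 members in RP, against 0.0431% of genes called in either direction.

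**Figure D3:**
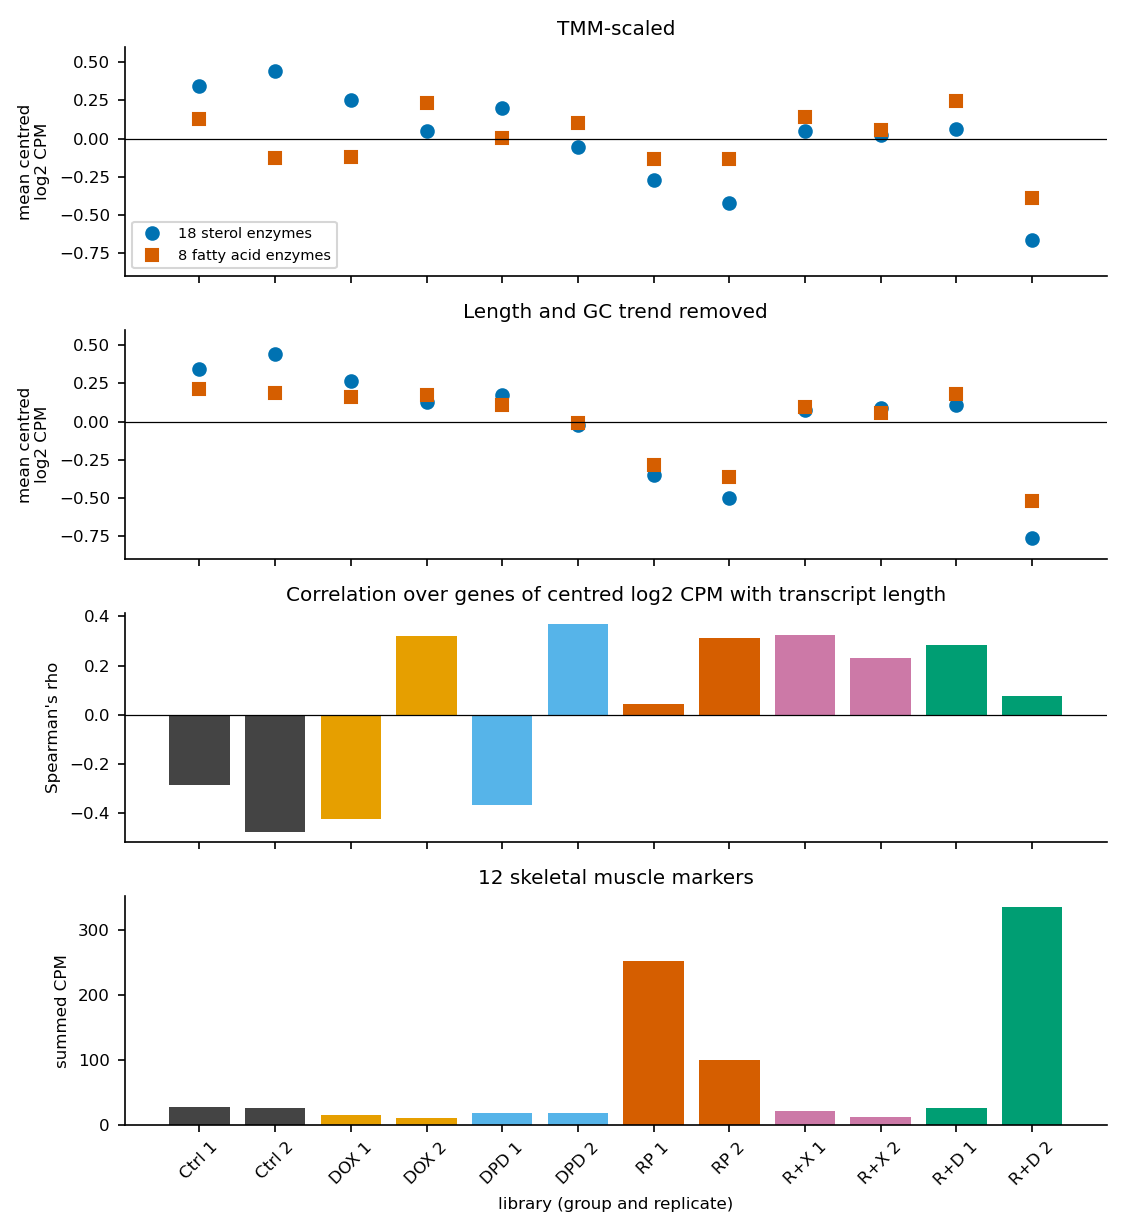
Per library (horizontal axis, group and replicate): mean centred log2 CPM of the 18 sterol and 8 fatty acid enzymes as scaled and after removal of the length and GC trend, Spearman's rho of centred log2 CPM with transcript length over genes, and the summed CPM of 12 muscle markers. Sterol lies above fatty acid where rho is negative, and after removal of the trend both are lowest in R+D replicate 2 and RP, where the muscle sums of 335, 252 and 99.2 CPM stand.

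Members of the sterol pathway varied together over the 12 libraries. The median Pearson correlation of log2 CPM was 0.83 over the 153 pairs of sterol enzymes, with 0 negative pairs, 0.62 over 28 pairs of fatty acid enzymes, and 0.47 over 144 mixed pairs, of which 37 were negative. The libraries share groups, depth and the trend with length, so these values are a description. With group means subtracted the medians were 0.72, 0.80 and 0.52. Without R+D replicate 2 and RP replicate 2, the 2 libraries whose sterol mean was farthest from its median, they were 0.68, 0.49 and 0.0050. Leaving out libraries picked by the sterol mean tends to lower such correlations by itself, so no conclusion is drawn from the fall. With the length and GC trend removed they were 0.92, 0.81 and 0.87.

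Hmgcs1 and Fasn served as points of reference. Of 19524 other genes, the 20 most like Hmgcs1 over the 12 libraries included 11 members: Idi1, with a correlation of 0.98, Sqle with 0.97, Nsdhl, Fads1, Fads2, Insig1, Lss, Cyp51, Scd2, Stard4 and Sc5d, the last with 0.90. Acsl3, an acyl-CoA synthetase that is no member, was also among the 20, with 0.89. Among the members, the least like Hmgcs1 were Acaca, with −0.07, Fasn, with 0.13, and Ebp, with 0.21. That order depended on the groups. With group means subtracted, Fasn had 0.77 and Acaca 0.56, and the lowest were Ebp, with −0.10, Srebf1, with −0.08, and Pmvk, with −0.04. With group means kept, the 100 most like Hmgcs1 held 17 members, and 21 after removal of the length trend. Among the 20 genes most like Fasn, Acaca was the only member, at rank 4 with 0.91, and Afap1l2, with 0.94, Gm40453, with 0.92, and Pip4k2b, with 0.92, ranked above it. The 100 most like Fasn held 1 member, and 16 after removal of the trend. The correlation of Fasn with Hmgcs1 then became 0.93 and that of Pmvk with Hmgcs1 went from 0.45 to 0.88.

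**Figure D4:**
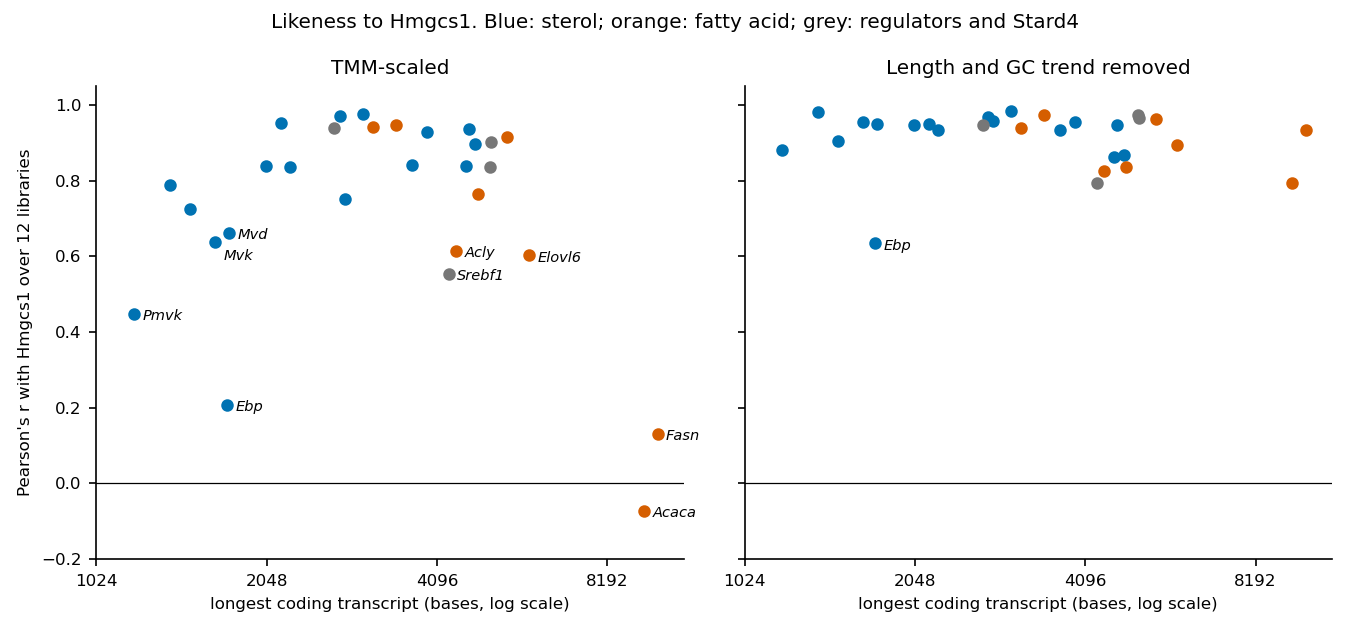
Pearson's r of each member with Hmgcs1 over 12 libraries (vertical axis) against the length of its longest coding transcript (bases, log axis), as scaled and after removal of the length and GC trend. As scaled, the short Pmvk, at 0.45, and the long Fasn and Acaca, at 0.13 and −0.07, lie low, and after removal Ebp, at 0.63, is the lowest.

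The windows around the start sites were read for motifs of factors known to act on such promoters. RefSeq windows of 300 bases (250 before and 50 after the start, GRCm38.p6) were matched for 23 of the 30 members. CCAAT, bound by NF-Y, which works beside SREBP, was found on either strand in 19 of 23, or 82.6%, against 41.1% of 27025 genes with a window. GGGCGG, bound by Sp1, was found in 19 of 23, against 38.2% of genes. CACGTG, an E-box, was found in 4 (Hsd17b7, Sc5d, Dhcr7 and Insig1), against 8.09%. TCACNCCAC, a form of the sterol response element, was found in 1, Hmgcs1, against 1.44%. A match is a description of these letters. Shown are Hmgcs1 with Idi1 and Insig1, which varied much like it, Mvk as a large difference in RP, and Fasn, which was less like Hmgcs1 as scaled. They lie at chr13:119690101-119690400 (plus strand), chr13:8885356-8885655 (plus strand), chr5:28071162-28071461 (plus strand), chr5:114444019-114444318 (plus strand) and chr11:120824498-120824797 (minus strand), and are printed 5′ to 3′ along the gene, with matches to CCAAT (or ATTGG on the other strand) and TCACNCCAC in capitals. The Fasn window lies inside the gene, whose 5′ end on that strand is at 120825166, so it may not be the main promoter. Other windows, such as that of Acaca, also lie inside their genes.
Hmgcs1: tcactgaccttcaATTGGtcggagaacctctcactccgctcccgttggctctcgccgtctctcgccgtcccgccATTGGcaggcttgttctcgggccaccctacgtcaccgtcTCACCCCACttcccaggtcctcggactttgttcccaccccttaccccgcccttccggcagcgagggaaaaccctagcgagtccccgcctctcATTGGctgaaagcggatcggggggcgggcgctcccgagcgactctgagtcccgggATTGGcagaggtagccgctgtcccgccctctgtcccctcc
Idi1: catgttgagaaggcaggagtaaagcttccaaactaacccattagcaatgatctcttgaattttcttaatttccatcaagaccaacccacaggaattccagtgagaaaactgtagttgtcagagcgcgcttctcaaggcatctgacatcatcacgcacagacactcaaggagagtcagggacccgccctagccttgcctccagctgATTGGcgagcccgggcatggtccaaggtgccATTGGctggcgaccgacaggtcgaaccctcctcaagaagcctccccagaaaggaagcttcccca
Insig1: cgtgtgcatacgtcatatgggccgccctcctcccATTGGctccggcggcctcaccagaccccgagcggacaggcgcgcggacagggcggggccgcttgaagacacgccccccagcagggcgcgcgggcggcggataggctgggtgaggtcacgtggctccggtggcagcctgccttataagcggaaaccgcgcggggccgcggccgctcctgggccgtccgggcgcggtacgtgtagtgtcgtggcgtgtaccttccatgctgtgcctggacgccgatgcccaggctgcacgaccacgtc
Mvk: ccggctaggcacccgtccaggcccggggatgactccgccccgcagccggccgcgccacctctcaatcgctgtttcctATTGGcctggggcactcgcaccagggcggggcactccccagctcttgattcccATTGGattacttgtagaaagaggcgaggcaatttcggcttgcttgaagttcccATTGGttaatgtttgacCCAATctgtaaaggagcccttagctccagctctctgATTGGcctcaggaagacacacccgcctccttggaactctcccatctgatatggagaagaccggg
Fasn: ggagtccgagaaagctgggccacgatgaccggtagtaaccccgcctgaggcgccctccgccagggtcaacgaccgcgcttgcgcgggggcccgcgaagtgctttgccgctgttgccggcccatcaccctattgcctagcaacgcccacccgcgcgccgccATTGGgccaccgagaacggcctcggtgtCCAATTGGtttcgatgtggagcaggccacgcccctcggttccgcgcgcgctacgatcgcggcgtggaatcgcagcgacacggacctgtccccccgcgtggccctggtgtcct
The Hmgcs1 window held 4 CCAAT matches and the TCACNCCAC match, Mvk 5 CCAAT matches, Fasn 3, Idi1 2 and Insig1 1.

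Other genes of lipid supply were read from lists of sterol synthesis and uptake, lipogenesis, and sterol export under LXR control, with 21, 22 and 13 genes tested. In RP against Ctrl 0 of them passed edgeR. Their medians were −0.21, 0.08 and 0.21 log2 units, and 5, 4 and 1 were lower and 0, 1 and 1 higher at an unadjusted p under 0.05, where 1831 of all 19525 genes were lower and 2351 higher. Tmem97, a sterol-responsive membrane protein, stood at −0.52. In lipogenesis Tecr, an enoyl-CoA reductase, stood at −0.96, Slc25a1, the mitochondrial citrate carrier, at −0.71, and Acacb, the mitochondrial acetyl-CoA carboxylase, at 0.70. Abca1, which exports cholesterol to lipoproteins, stood at 23.1 and 14.8 in Ctrl, 18.9 and 35.0 in DOX, 27.5 and 49.7 in DPD, 49.97 and 78.2 in RP, 41.6 and 41.3 in R+X, and 33.2 and 47.1 in R+D, in CPM. Its RP libraries were the highest pair, at 1.76 ± 0.38 log2 units (SE), with an adjusted p of 0.127 by edgeR. Values for these other lists come from the fit that kept the length and GC trend, and its part in them was not tested.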

How the data were processed

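RNA-seq of 12 tumour libraries was analysed from the deposited table of whole-number counts per gene, not normalised; per the labels' protocols, TRIzol was used for extraction and NEBNext Ultra for library preparation. Per the submitters' processing notes, HISAT2 2.1.0, StringTie 1.3.5, DESeq2 and the build GRCm38 were used; for the annotation release and strand setting, the sources used here name none. The table had 43698 rows. Replicates 1 and 2 are names by listing order and pair nothing.

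Counts were fitted in R 4.3.3 with edgeR 4.0.16 (quasi-likelihood, TMM scaling, filterByExpr, 19525 genes) as 6 groups sharing 1 spread, with 6 residual degrees of freedom and a biological coefficient of variation of 0.257. Passing meant a Benjamini-Hochberg adjusted p under 0.05 over all genes. Levels are TMM-scaled CPM, and correlations used log2 CPM with a prior count of 2. Transcript lengths and GC came from GENCODE M21, and the trend was a loess with a span of 0.5. Members and lists were chosen with earlier results of these data known. Named were a fixed panel, members that passed or the 3 of smallest p per comparison, and the nearest genes to Hmgcs1 and Fasn; Acaca and other members outside that rule were named after their values were seen, and some genes of the other pathway lists are not reported here. Alternatives were DESeq2 1.42.0, limma-voom (limma 3.58.1), RLE scaling, no filter, summed name copies, marker scores as covariates, the compared groups alone and each library left out. The tests were tested on simulated data.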

Additional observations from a re-analysis of the deposited data

How the results depend on the processing

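No paired analysis was possible because the labels number no replicates. Of the alternatives, RLE scaling, no filter, summed name copies, the adipocyte and skin scores and limma-voom changed no direction of a named member and called 0 members. Of all genes these settings called at most 0.0819%, by limma-voom in RP, and 0% with the skin score. A count of 0 members is near those shares and says little about the members. DESeq2 called 7 members in RP, 1 in R+D, 7 for the averaged conjugate and 2 in the test of any difference, and the compared groups alone called 5 in RP, as given above.

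With muscle as a covariate, sterol medians were −0.32 in RP and −0.0075 in R+D against R+X, and the fatty acid medians 0.23 in RP, 0.155 in R+D, 0.165 in R+D against R+X and 0.207 for the averaged conjugate. Values that turned positive were Idi1 (0.0093), Srebf2 (0.092) and Scd2 (0.017) in RP, Srebf2 (0.0061), Scd1 (0.017) and Scd2 (0.060) in R+D, and Hmgcs1 (0.041), Sqle (0.065), Idi1 (0.080), Insig1 (0.059), Srebf2 (0.087) and Scd2 (0.154) for the averaged conjugate. The cause was not tested.

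Leaving out each library in turn moved the members called for the averaged conjugate from 0 to 8 (without DOX replicate 2, where 15.6% of all genes were called). The sterol median ran from −1.11 to −0.33 in R+D and from −0.79 to 0.06 in R+D against R+X, and the fatty acid median from −0.42 to 0.19 and from −0.57 to 0.11, the extremes without R+D replicate 1 and 2. The fatty acid medians of DOX, DPD, R+X, DPD against DOX and the averaged conjugate also changed sign with 1 library left out, as given above. Without R+D replicate 2, Sqle (0.025), Srebf2 (0.083) and Scd2 (0.078) turned positive in R+D, from −1.02, −0.61 and −0.61 without R+D replicate 1. Scd1 in DPD against DOX ran from −0.44 to 0.014, the last without DOX replicate 2. A lone library left in a group was assumed to vary like the others.

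Removal of the length and GC trend called 11 members in RP and 4 for the averaged conjugate. The fatty acid medians became −0.52 in RP, −0.15 in R+X and −0.33 in R+D, and Fasn −0.47 in RP, −0.25 in R+D and −0.22 for the averaged conjugate. The sterol minus fatty acid difference became 0.26 in Ctrl replicate 2 and 0.10 in DOX replicate 1. Median correlations of sterol, fatty acid and mixed pairs were 0.72 and 0.80 (the first and second) with group means subtracted, 0.68, 0.49 and 0.0050 without the 2 farthest libraries, and 0.81 and 0.87 for fatty acid and mixed pairs with the trend removed. With 2 libraries a group, the 95% interval of Hmgcs1 in RP ran from −1.16 to −0.05 log2 units.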

Other observations

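The conjugate's difference with a drug was set against that alone as an interaction, chosen after seeing the data. The route of the drug also differed between the groups with and without conjugate. A dependence on the drug and one on its route therefore cannot be told apart here. The median over sterol enzymes of the conjugate's difference with DOX minus that alone was 0.60 log2 units, edgeR called 0 of 30 members and 0 of all genes, and 5 members (Sc5d, Fdft1, Cyp51, Msmo1 and Srebf1) were below an unadjusted p of 0.05, as were 724 of the 19525 genes tested. For DPD in place of DOX the median was 0.39, and 0 members were called or below an unadjusted p of 0.05 by edgeR, against 871 genes below it. For DPD minus DOX, with conjugate minus without, the median was −0.18, with 0 members called or below an unadjusted p of 0.05 by edgeR, against 413 genes below it.

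Sebaceous gland markers, another lipid-making source in skin, summed to 18.1 CPM in RP replicate 2 and to 4.71 to 8.10 CPM in the other 11 libraries. The 7 proliferation genes had a median of 0.05 log2 units in RP against Ctrl, 4 above and 3 below 0. By edgeR 2 of them were higher and 0 lower at an unadjusted p under 0.05, where 2351 of all 19525 genes were higher. Mki67 stood at 498 and 575 CPM in RP and 257 and 188 in Ctrl, and Top2a at 883 and 1069 in RP and 596 and 524 in Ctrl. By contrast, Pcna stood at 281 and 297 CPM in RP and 302 and 401 in Ctrl. Cdk1 stood at 139.6 and 154 in RP and 139.7 and 190 in Ctrl, and Mcm5 at 297 and 265 in RP and 280 and 312 in Ctrl. These values keep the length and GC trend, and its part in them was not tested.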
